A study of Mus musculus with 18 samples.

Results

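Described here are 96 genes whose RNA was lower in hair follicle stem cells (HFSC) of adrenalectomised mice than in those of sham-operated mice, and higher again in adrenalectomised mice that received corticosterone. They were chosen among 27933 gene symbols on the values themselves. A gene had to average at least 10 CPM in Sham (counts scaled to a common library total), had to be at least 1 lower on the log2(CPM + 1) scale in ADX than in both Sham and ADX+CORT, and had to be lower in both ADX libraries than in all 4 others. Of 9414 genes at 10 CPM or more in Sham, 103 met these conditions. Symbols beginning with Krt, Col, Gm or a digit and 4 single genes were set aside by name, which removed 7 genes, among them Klf15 and the bulge marker Cd34. The values in ADX+CORT, ADX and Sham HFSC therefore chose the genes, and they are given as a description with no test. The same ADX libraries stand in both of the contrasts used. The title of the series asks whether corticosterone acts on stem cell quiescence through Gas6.

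All groups were female mice with 2 RNA-seq libraries each. The surgery groups were C57BL/6 wild type, either adrenalectomised with corticosterone feeding (ADX+CORT, HFSC only), adrenalectomised (ADX) or sham-operated (Sham). GR KO mice were Pdgfra-CreER; GR fl/fl on a 129/C57BL/6 background, and their Control mice were wild type of the same background. Both of these groups received tamoxifen in the peritoneum for 6 days. Pdgfra drives the recombinase in dermal mesenchyme, so the glucocorticoid receptor (GR) was targeted in dermal cells around the HFSC. Cells were purified by flow cytometry as HFSC or as dermal papilla cells (DP), the mesenchymal signalling centre at the follicle base. The labels give no ages and do not say whether libraries came from separate mice, so the p-values measure the spread between libraries, which may be technical.

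Hair follicle stem cells reside in the bulge and stay quiescent through the resting phase of the hair cycle, until signals from the dermal papilla and other neighbours start growth. Corticosterone is the main glucocorticoid of mice and comes from the adrenal cortex. It binds GR (gene Nr3c1), which regulates genes by binding palindromic response elements in DNA and by acting with other transcription factors such as AP-1.

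HFSC libraries held 14067139 to 33014976 counts and DP libraries 6194415 to 13941628. The sorted HFSC carried 11564 to 32941 CPM of Krt15, a bulge keratin, and 0 to 2.81 CPM of Pdgfra, which marks dermal fibroblasts. Other mesenchymal markers were higher there, with 14.8 to 100 CPM of Dcn, 25.25 to 95.7 CPM of Col1a2 and 8.54 to 96.1 CPM of Vim. The sorted DP carried 175 to 1095 CPM of Pdgfra, and 0.359 to 286 CPM of Krt15. In DP, Nr3c1 had 122 and 101 CPM in GR KO and 642 and 880.2 CPM in Control. In HFSC it had 258 and 173 CPM in GR KO and 262 and 308 CPM in Control. There its log2 fold change was -0.53 (edgeR adjusted p = 0.367), and the libraries did not overlap. In the surgery HFSC, Nr3c1 had 398 and 311 CPM in ADX+CORT, 270 and 259 CPM in ADX and 427 and 396 CPM in Sham. A list of 15 immune cell genes summed to 4001 and 4953 CPM in GR KO HFSC and 4128 and 3865 CPM in Control HFSC, against 99.0 to 262 CPM in the 6 surgery libraries. HFSC levels of the surgery and the deletion experiments, which also differed in strain and tamoxifen, were therefore not tested against each other.

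Promoter windows, 250 bases before to 50 after a start site (RefSeq, GRCm38.p6), were found for 72 of the 96 genes, in 85 windows. The full glucocorticoid response element, an inverted repeat with a spacer, was in none of the 72, and in 0.0136% of 7363 matched genes at 10 CPM or more in Sham. Its loose core ACANNNTGT was in 1 of the 72 (1.39%, against 4.29% of those genes), in a window of Znfx1. The AP-1 site TGANTCA was in 5 (6.94%, against 6.03%), the E-box CACGTG in 10 (13.9%, against 12.5%) and the cyclic AMP response element TGACGTCA in 4 (5.56%, against 3.71%). Both strands were searched, and the loose core lies within the full element. A match is only a run of letters, and windows of this size leave out distal elements. Windows of 3 genes are printed to show where such letters stand relative to a start site, with the motif in capitals: the loose core in Znfx1 (chr2:167043446-167043745, minus strand), the E-box in Chat (chr14:32465860-32466159, minus strand) and the AP-1 site in Lor (chr3:92083093-92083392, minus strand).
Znfx1: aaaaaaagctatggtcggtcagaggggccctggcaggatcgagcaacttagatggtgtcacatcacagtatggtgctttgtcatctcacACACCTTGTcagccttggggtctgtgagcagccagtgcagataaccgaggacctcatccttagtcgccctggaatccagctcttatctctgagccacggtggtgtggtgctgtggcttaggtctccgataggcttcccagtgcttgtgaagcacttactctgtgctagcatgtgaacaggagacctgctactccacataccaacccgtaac
Chat: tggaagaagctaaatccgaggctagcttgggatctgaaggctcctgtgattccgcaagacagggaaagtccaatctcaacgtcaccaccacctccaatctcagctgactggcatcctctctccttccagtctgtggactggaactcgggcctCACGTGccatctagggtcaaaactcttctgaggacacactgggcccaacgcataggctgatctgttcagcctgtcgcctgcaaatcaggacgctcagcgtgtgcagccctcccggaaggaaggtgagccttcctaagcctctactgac
Lor: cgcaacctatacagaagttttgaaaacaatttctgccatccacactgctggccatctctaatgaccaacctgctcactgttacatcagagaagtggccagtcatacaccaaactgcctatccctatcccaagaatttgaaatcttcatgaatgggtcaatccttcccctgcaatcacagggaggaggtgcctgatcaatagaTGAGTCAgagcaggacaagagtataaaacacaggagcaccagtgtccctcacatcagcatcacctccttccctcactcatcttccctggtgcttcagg
The median GC content of the windows was 61.0% for the 72 genes and 61.3% for the genes at 10 CPM or more in Sham.

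As a set the 96 genes held 10551 and 9031 CPM in ADX+CORT HFSC, 3530 and 5129 CPM in ADX and 10919 and 9898 CPM in Sham. Both ADX sums were below all others of the surgery experiment, which the choice of genes fixed. The median gene averaged 28.9 CPM in ADX+CORT, 11.3 CPM in ADX and 29.4 CPM in Sham. On the log2(CPM + 1) scale ADX minus Sham ran between -2.24 and -1.01 with a median of -1.23, and ADX+CORT minus ADX between 1.001 and 2.55 with a median of 1.26. ADX+CORT minus Sham, which the rule did not set directly, ran between -0.92 and 1.14 with a median of 0.03. For 84 of the 96 genes the ADX+CORT and Sham means lay within 0.5 of each other. In 66 genes the ADX+CORT and Sham libraries overlapped, in 17 both ADX+CORT libraries were above both Sham libraries and in 13 both were below. The rule had already placed both groups at least 1 above ADX. The shares over all genes were not counted, so these counts only describe the 96 genes and show no difference or likeness particular to them.

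**Figure D1:**
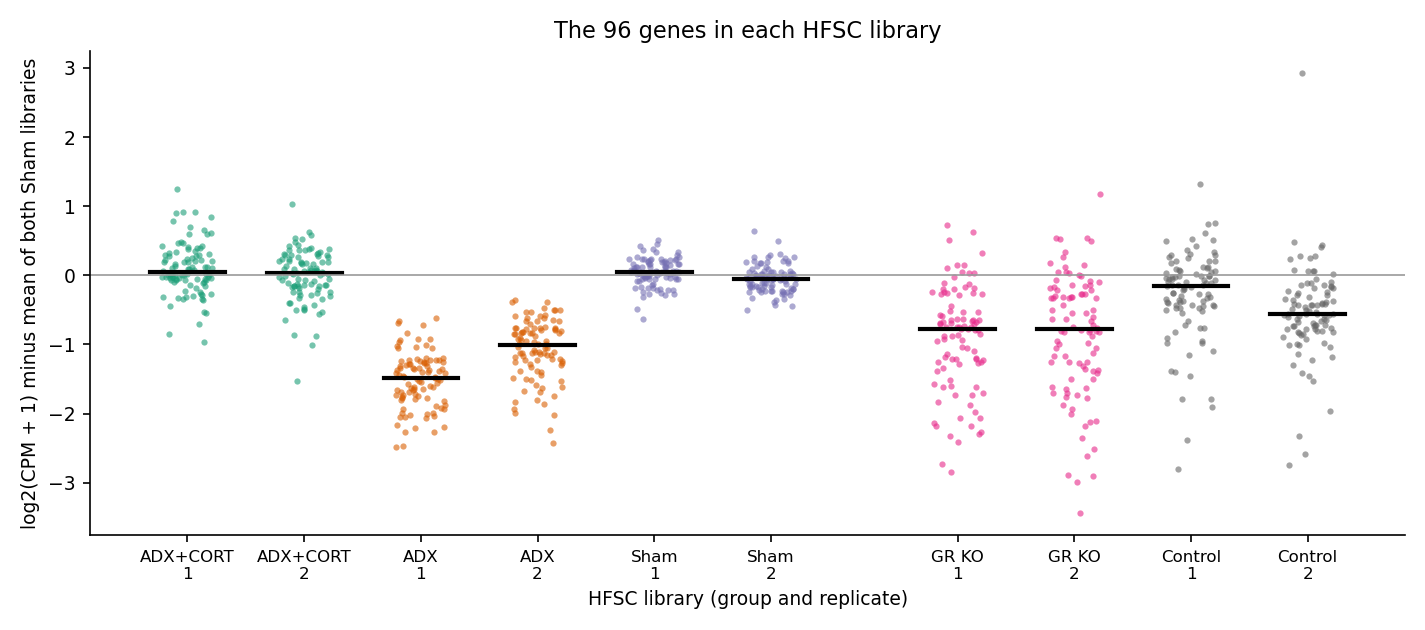
Each dot is 1 of the 96 genes in 1 HFSC library, as log2(CPM + 1) minus the mean of both Sham libraries, and the black lines are medians. The rule chose the genes on the 6 libraries at the left, whose medians are 0.04 and 0.04 in ADX+CORT and -1.48 and -1.01 in ADX, while the GR KO medians of -0.78 and -0.78 against -0.16 and -0.56 in Control played no part in the choice. The Sham mean serves these 4 libraries only as a common zero.

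The ADX libraries were not alike. In 74 of the 96 genes ADX replicate 1 was lower than ADX replicate 2. A list of 20 G2 and M phase genes, which mark dividing cells, summed to 1572 CPM in ADX replicate 1 and 578 CPM in ADX replicate 2, against 378 and 149 CPM in ADX+CORT and 207 and 247 CPM in Sham. With ADX replicate 1 alone, 384 genes met the rule, of which 83 were among the 96. With ADX replicate 2 alone, 100 met it, of which 39 were among the 96. Of the background of 9414 genes, 2.27% were at least 1 lower in ADX than in Sham and 4.33% at least 1 lower in ADX than in ADX+CORT, and 1.09% met every condition before names were set aside. Near the threshold, the smaller of both differences was 1.0011 for Ccdc3, 1.003 for Tmem231 and 1.0034 for Duoxa1, which were in, and 0.999 for Tmem151a, 0.9986 for Nkd1 and 0.9963 for Elp3, which were out.

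**Figure D2:**
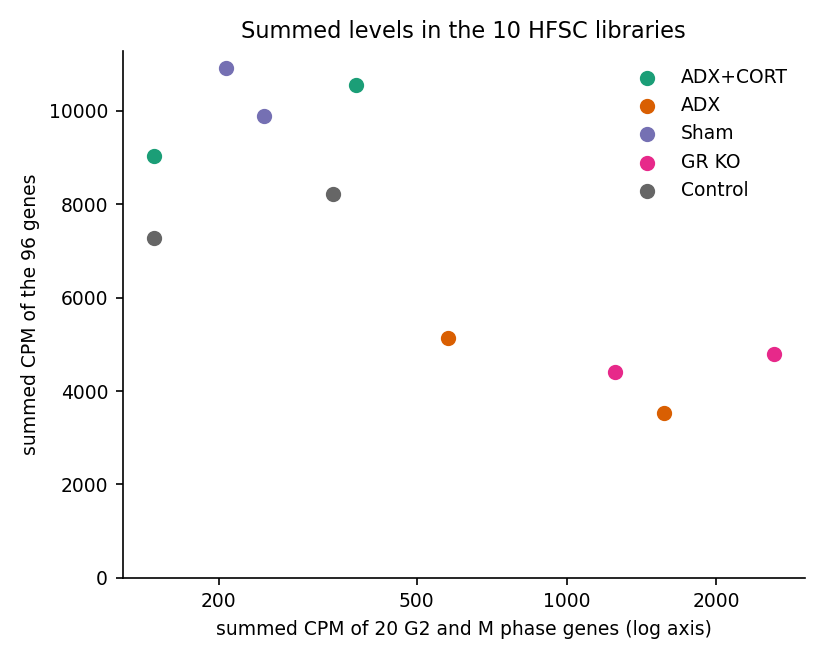
Each dot is 1 HFSC library, with the summed CPM of 20 G2 and M phase genes on a log axis and the summed CPM of the 96 genes on a linear axis. The choice of genes fixed the sums of the 96 genes in ADX below those in Sham and ADX+CORT. GR KO and Control played no part in the choice. GR KO holds 1248 and 2606 CPM of the cell cycle genes and 4418 and 4804 CPM of the 96 genes. Control holds 339.7 and 148 CPM of the cell cycle genes and 8211 and 7270 CPM of the 96 genes. Levels of the surgery and the deletion experiments were not tested against each other.

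Tgm5 was the most abundant of the genes. This transglutaminase, which cross-links the cornified envelope (chr2:121046111-121085841, mm10), had 3890.5 and 2969 CPM in ADX+CORT, 1466 and 1921 CPM in ADX and 4534 and 3835 CPM in Sham. Its library values made up the largest share of the summed level, and without it the sums were 6660 and 6062 CPM in ADX+CORT, 2064 and 3208 CPM in ADX and 6385 and 6063 CPM in Sham. Per length, Tgm5 reached 1326 CPM per kilobase of exon in Sham, followed by Duoxa1 at 139, Chat at 106, Spon2 at 98.2 and Thsd1 at 82.7. Lor encodes loricrin, the main cornified envelope protein (chr3:92080271-92083142), and had 95.8 and 65.5 CPM in ADX+CORT, 14.4 and 20.5 CPM in ADX and 50.1 and 50.5 CPM in Sham. Cdsn, the desmosomal adhesion protein of cornified cells, had 176 and 149.8 CPM in ADX+CORT, 16.7 and 42.6 CPM in ADX and 61.6 and 86.8 CPM in Sham. Lor and Cdsn were higher in both ADX+CORT libraries than in both Sham libraries, and Tgm5 was not. Lor was the only one of the 96 on a list of 18 differentiated epidermis genes. Of that list, 4 of 18 genes were below Sham in ADX HFSC, and it summed to 13261 and 16728 CPM in ADX+CORT, 13489 and 15620.1 CPM in ADX and 9505 and 11749.9 CPM in Sham.

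Duoxa1 and Duox1 encode the maturation factor and the enzyme of a dual oxidase that releases hydrogen peroxide. Duoxa1 (chr2:122302191-122313730) had 533 and 453 CPM in ADX+CORT, 196 and 305 CPM in ADX and 569.7 and 534 CPM in Sham. Duox1 had 168 and 172 CPM in ADX+CORT, 40.02 and 90.2 CPM in ADX and 133 and 123 CPM in Sham. The pair lies side by side on chromosome 2, and 682 of the 3977 exon bases of Duoxa1 are shared with Duoxa2 on the opposite strand, whose reads could not be told apart. Chat, which makes acetylcholine (chr14:32408203-32465909), had 284 and 284 CPM in ADX+CORT, 72.2 and 127 CPM in ADX and 295 and 299.9 CPM in Sham. Its ADX+CORT libraries stood just below its Sham libraries. Arg1, the arginase that splits arginine into urea and ornithine, had 26.04 and 19.7 CPM in ADX+CORT, 10.02 and 7.52 CPM in ADX and 15.4 and 22.5 CPM in Sham.

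Matrix and secreted proteins made up 10 of the genes. Ltbp2, a microfibril protein of the latent TGF-beta binding family, had 246 and 221 CPM in ADX+CORT, 52.5 and 143 CPM in ADX and 234 and 253 CPM in Sham. Adamtsl4, which associates with fibrillin microfibrils, had 333 and 256 CPM in ADX+CORT, 101 and 140.4 CPM in ADX and 307 and 228 CPM in Sham. Vwa1, a basement membrane protein that binds perlecan, had 226 and 244 CPM in ADX+CORT, 68.9 and 139 CPM in ADX and 234 and 242 CPM in Sham. In all 3, ADX replicate 1 was the lowest library of the surgery experiment and the ADX+CORT values stood near those of Sham. Spon2, a secreted spondin, had 220.5 and 94.6 CPM in ADX+CORT, 74.1 and 66.7 CPM in ADX and 194 and 385 CPM in Sham, with a wide spread within ADX+CORT and within Sham. Fgf18, a growth factor of the bulge known to hold follicles in the resting phase, had 52.02 and 58.7 CPM in ADX+CORT, 16.99 and 35.9 CPM in ADX and 84.2 and 86.2 CPM in Sham. It was the only one of the 96 on a list of 26 bulge stem cell genes, a count that leaves out genes set aside by name, such as Cd34. Both ADX+CORT libraries of Fgf18 were below both Sham libraries. Of that bulge list, 19 of 26 genes were lower in ADX than in Sham, with a median difference of -0.29. The list summed to 50743 and 50267 CPM in ADX+CORT, 31903 and 40214 CPM in ADX and 52846 and 56272 CPM in Sham. Krt15, its most abundant gene, had 27651 and 27195 CPM in ADX+CORT, 11564 and 18909.7 CPM in ADX and 27066 and 32292 CPM in Sham. Both ADX libraries were thus below the other 4 in the sum and in Krt15, and the part of this in the differences of the 96 genes was not tested. Ccdc3, a secreted protein (chr2:5137776-5230878), had 126 and 105 CPM in ADX+CORT, 48.7 and 66.5 CPM in ADX and 131 and 128 CPM in Sham; 1845 of its 2670 exon bases are shared with the opposite-strand gene Gm26776. Fmod, Emilin3, Plat and Serpina12 averaged 11.0022 to 56.4 CPM in Sham.

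Genes that build or modify glycans and collagen numbered 6. Fkbp10, a prolyl isomerase that folds procollagen (chr11:100415697-100424824), had 78.9 and 93.2 CPM in ADX+CORT, 36.7 and 48.2 CPM in ADX and 97.5 and 77.4 CPM in Sham. St3gal2, a sialyltransferase, had 81.4 and 78.5 CPM in ADX+CORT, 20.05 and 32.2 CPM in ADX and 65.01 and 65.4 CPM in Sham. Xylt1 and Ndst2 start and sulfate proteoglycan chains, Chsy3 extends chondroitin and Naglu degrades heparan sulfate, and these 4 averaged 16.3 to 37.3 CPM in Sham. Across the 6, ADX minus Sham lay between -1.36 and -1.02 and ADX+CORT minus Sham between -0.02 and 0.30 (log2).

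Receptors numbered 8 and transporters 6. The adrenergic receptor gene Adra2a had 32.1 and 19.6 CPM in ADX+CORT, 12.5 and 9.46 CPM in ADX and 35.9 and 45.9 CPM in Sham. Fzd9, a Wnt receptor, had 42.3 and 65.2 CPM in ADX+CORT, 9.67 and 33.97 CPM in ADX and 59.1 and 56.8 CPM in Sham. In Fzd9 the spread between both ADX libraries was wider than that between both Sham libraries. Slc14a1, a urea transporter, had 17.5 and 19.1 CPM in ADX+CORT, 4.91 and 5.13 CPM in ADX and 21.8 and 20.8 CPM in Sham, with ADX libraries close to each other. Slc5a6, which imports biotin and pantothenate (chr5:31036036-31048924), had 33.2 and 27.8 CPM in ADX+CORT, 13.5 and 12.2 CPM in ADX and 34.4 and 24.4 CPM in Sham. Slc29a2, a nucleoside transporter, had 12.5 and 16.8 CPM in ADX+CORT, 3.48 and 2.96 CPM in ADX and 12.6 and 13.2 CPM in Sham. The receptors averaged 15.1 to 122 CPM in Sham, and all 8 lay between -1.81 and -1.02 in ADX minus Sham.

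The largest change by the smaller of both differences was that of Npas2, a circadian transcription factor related to Clock (chr1:39193731-39363236). It had 43.5 and 17.6 CPM in ADX+CORT, 7.18 and 5.30 CPM in ADX and 37.7 and 28.6 CPM in Sham, which is a difference of -2.24 for ADX minus Sham and 2.00 for ADX+CORT minus ADX (log2). The next 11 by this measure were Gdpd5, Slc29a2, Fam129a, Hid1, Slc14a1, Cdr2l, Chat, Srrm4, Cpm, Lor and Ngef. Cpm, a membrane carboxypeptidase, had 19.3 and 12.02 CPM in ADX+CORT, 2.63 and 2.96 CPM in ADX and 12.6 and 7.56 CPM in Sham. Fam129a had 25.5 and 32.1 CPM in ADX+CORT, 4.76 and 7.75 CPM in ADX and 28.1 and 17.2 CPM in Sham. Several of these genes are low, and a library's value there rests on few reads. Ngef had 46.2 and 67.7 CPM in ADX+CORT, 8.96 and 38.5 CPM in ADX and 61.9 and 48.7 CPM in Sham. Hid1, known from secretory vesicle biology, had 11.98 and 15.7 CPM in ADX+CORT, 3.41 and 2.62 CPM in ADX and 12.3 and 11.5 CPM in Sham.

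Others among the 12 most abundant were Pdzrn4, Thsd1, Myh14 and Tmem43. Pdzrn4, which carries PDZ and RING domains (chr15:92396915-92771819), had 302 and 250.1 CPM in ADX+CORT, 122 and 146 CPM in ADX and 326 and 306 CPM in Sham. Thsd1, a transmembrane protein with a thrombospondin domain, had 425 and 435 CPM in ADX+CORT, 128 and 251 CPM in ADX and 406 and 325 CPM in Sham. Myh14, a nonmuscle myosin heavy chain, had 221 and 271 CPM in ADX+CORT, 74.9 and 146 CPM in ADX and 239 and 221 CPM in Sham. Tmem43, a nuclear envelope protein, had 256 and 248 CPM in ADX+CORT, 87.4 and 135 CPM in ADX and 247 and 195 CPM in Sham. In each of these, ADX replicate 2 stood between ADX replicate 1 and the other 4 libraries. Further genes by role were 4 of the nucleolus and of mitochondrial tRNA charging (Nop2, Pwp2, Pars2 and Vars2), 4 of cilia and trafficking (Tmem231, Bbs9, Vps8 and Unc119b), 5 of the cytoskeleton and lamina (with Myh14) and 4 transcription regulators (with Npas2). The 42 genes placed in no role group averaged 10.1 to 366 CPM in Sham and 2.80 to 189.9 CPM in ADX.

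Of a list of 30 genes that glucocorticoids induce in many tissues, 1 was among the 96, Arrdc2, an arrestin-domain gene with 35.2 and 23.5 CPM in ADX+CORT, 6.54 and 14.6 CPM in ADX and 34.9 and 32.5 CPM in Sham. This count leaves out genes set aside by name, such as Klf15, which had met every condition. Of the 9414 genes at 10 CPM or more in Sham, 1.09% met every condition before names were set aside. Of the 29 genes of that list in the HFSC table, 14 were lower in ADX than in Sham, with a median difference of 0.03. The fibroblast list summed to 1760.3 and 1911 CPM in ADX+CORT, 1065 and 1835 CPM in ADX and 1658 and 1957 CPM in Sham. Of single mesenchymal markers, Pdgfra was at 0 in both ADX libraries, Sox2 at 0 in all 6 and Corin at 0.171 CPM or less. Dcn, with 100 and 63.2 CPM in ADX and 21.3 and 34.2 CPM in Sham, was higher in both ADX libraries. So was Vim, with 25.4 and 25.1 CPM in ADX and 9.4 and 8.5 CPM in Sham. Col1a1, Col1a2, Col3a1 and Lum overlapped between ADX and Sham. By gene the list did not fall: of 13 genes that reached 1 CPM, 4 were lower in ADX than in Sham. The median difference was 0.40 (log2). The part of this list in the differences was not tested. In sorted bulk cells, fewer cells of a kind and less RNA per cell cannot be told apart.

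Deletion of GR in the surrounding Pdgfra-expressing cells was a comparison that the rule did not use. In HFSC of GR KO mice the 96 genes summed to 4418 and 4804 CPM, against 8211 and 7270 CPM in Control. Fitted values were lower in GR KO for 77 of the 96 genes, against 49.3% of all 15231 genes tested, and the median log2 fold change was -0.51, against 0.005 for all genes. In edgeR's quasi-likelihood test with Benjamini-Hochberg adjustment over all genes, 8 of the 96 fell (8.33%, where 0.315% of all genes were called lower) and 0 rose (0.67% of all genes were called higher). At an unadjusted p under 0.05, 36 of the 96 were lower, where 6.12% of all genes were, and 1 was higher, where 7% were. For 42 of the 96 (43.8%) both GR KO libraries were below both Control libraries, where 14.6% of all genes were, and for 6 (6.25%) both were above, where 24.5% were. DESeq2 called 20 lower, where it called 1.85% of the 14784 genes with an adjusted p, and 0 higher, where it called 2.99%.

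Of the 8 genes that fell in GR KO HFSC, Pdzrn4 was in no role group. The others spanned barrier, oxidase, acetylcholine, collagen, secreted and transporter roles. Pdzrn4 had 94.4 and 69.3 CPM in GR KO and 304 and 211 CPM in Control, or -1.76 ± 0.24 as log2 fold change (SE, n = 2 libraries each, edgeR adjusted p = 0.0162), and was the only one past the threshold whichever library was left out. Fkbp10 had 18.4 and 25.1 CPM in GR KO and 63.4 and 50.6 CPM in Control (log2 fold change -1.49 ± 0.26, adjusted p = 0.0327). Ccdc3 had 53.2 and 31.4 CPM in GR KO and 105 and 106 CPM in Control (log2 fold change -1.44 ± 0.27, adjusted p = 0.0344). Both GR KO libraries of these genes were below the lower Control library. Lor fell by 1.88 on the log2 scale, with 8.61 and 7.39 CPM in GR KO and 17.7 and 35.5 CPM in Control (adjusted p = 0.0384). Duoxa1 had 217 and 195 CPM in GR KO and 411 and 473 CPM in Control (log2 fold change -1.22 ± 0.25, adjusted p = 0.0421). In Slc14a1 the libraries had 6.34 and 6.25 CPM in GR KO and 16.04 and 19.8 CPM in Control (log2 fold change -1.63 ± 0.34, adjusted p = 0.0421). For Chat the values were 128 and 111 CPM in GR KO and 342 and 220.4 CPM in Control (log2 fold change -1.33 ± 0.28, adjusted p = 0.0432), and for Slc5a6 16.3 and 11.5 CPM in GR KO and 32.9 and 35.3 CPM in Control (log2 fold change -1.42 ± 0.30, adjusted p = 0.0433). None of the 8 overlapped between groups. The number called was 2 without Control replicate 1 (0.0748% of all genes were called lower), 1 without Control replicate 2 (0.0249%), 6 without GR KO replicate 1 (0.668%) and 3 without GR KO replicate 2 (0.056%), and the median stayed negative, between -0.73 and -0.38.

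**Figure D3:**
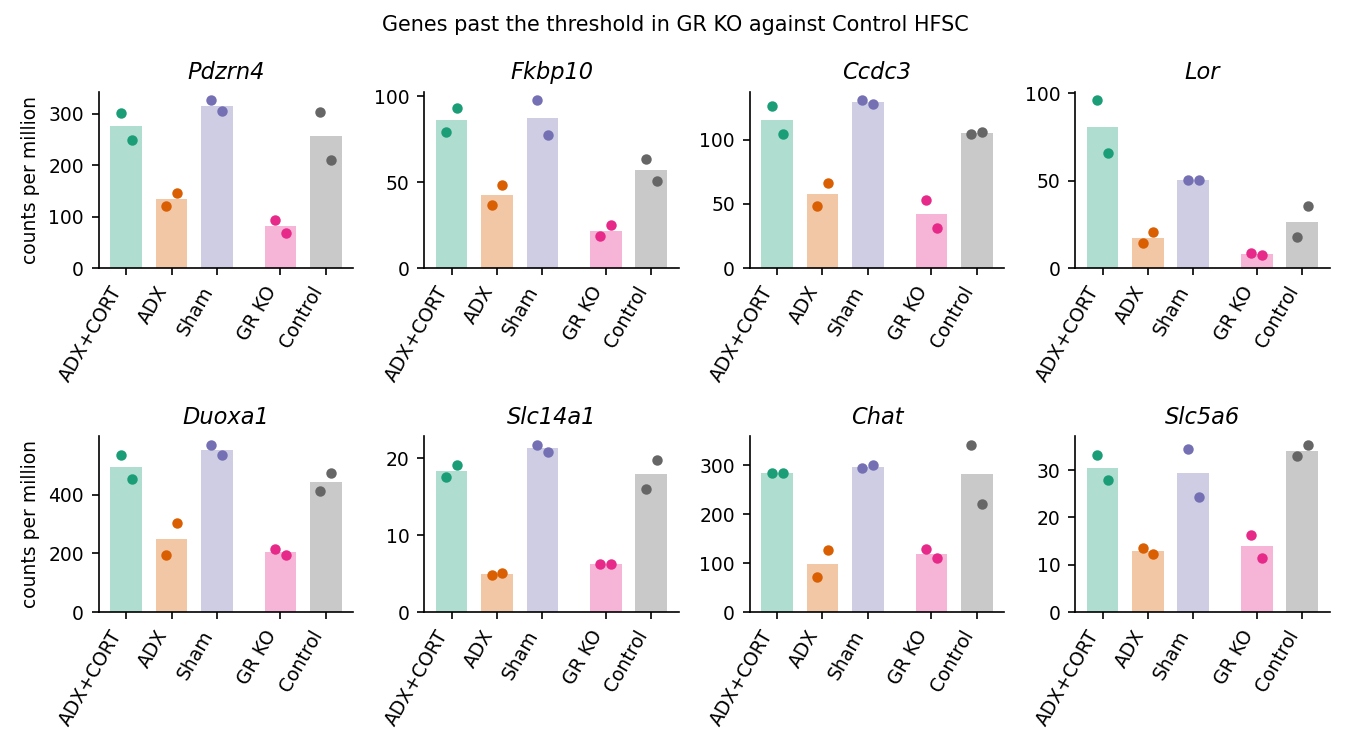
Each panel shows 1 of the 8 genes past the threshold in GR KO against Control HFSC, with CPM per library as dots and group means as bars from 0. Both GR KO dots are below both Control dots in every panel, for example 128 and 111 CPM in GR KO and 342 and 220.4 CPM in Control for Chat, and the ADX bar is lower than the Sham bar, which the choice of genes fixed.

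The role groups were drawn up after the members were seen. Of all genes, 49.3% had lower values in GR KO HFSC and 6.12% were lower at an unadjusted p under 0.05, as were 36 of the 96. By role, all 4 of the oxidase, acetylcholine and arginase genes were lower in GR KO HFSC at an unadjusted p under 0.05, with a median log2 fold change of -1.28, and 2 of them passed the adjusted threshold. Duox1 had 61.2 and 49.5 CPM in GR KO and 119 and 86.1 CPM in Control and Arg1 2.999 and 2.44 CPM in GR KO and 4.69 and 11.4 CPM in Control, and neither passed it (adjusted p = 0.177 and 0.12, edgeR). All 3 barrier genes were lower at that unadjusted level, with a median of -1.14. The list of 18 differentiated epidermis genes, with Lor on it, mostly went the other way. On it 4 genes had lower and 14 higher values, with a median of 0.70. Of these, 1 was called lower and 4 higher, where 0.315% and 0.67% of all genes were. Tgm5 had 1362 and 1673 CPM in GR KO and 2913 and 2690.2 CPM in Control (log2 fold change -0.99 ± 0.25, adjusted p = 0.0762), and Cdsn had 21.8 and 13.5 CPM in GR KO and 27.1 and 43.6 CPM in Control (adjusted p = 0.245). Of the 10 matrix and secreted genes, 8 had lower values, 7 of them at an unadjusted p under 0.05, and the median was -1.14. Adamtsl4 had 78.99 and 80.9 CPM in GR KO and 207 and 131 CPM in Control (adjusted p = 0.0536), Vwa1 108 and 115 CPM in GR KO and 223 and 288 CPM in Control (adjusted p = 0.0611), Ltbp2 81.4 and 32.1 CPM in GR KO and 184 and 151 CPM in Control (adjusted p = 0.092) and Fgf18 18.5 and 22.4 CPM in GR KO and 31.9 and 40.98 CPM in Control (adjusted p = 0.227). None of these 4 overlapped between groups, and none passed the threshold in edgeR. Of all genes, 14.6% had both GR KO libraries below both Control libraries. Spon2 went the other way in value, with 37.1 and 136 CPM in GR KO and 38.2 and 39.9 CPM in Control (adjusted p = 0.425), its groups overlapped, and its log2 fold change of 1.05 became -0.22 without GR KO replicate 2. The 4 genes of the nucleolus and mitochondrial tRNA charging had a median of 0.05, and the 4 of cilia and trafficking one of -0.32, with no gene in either group under an unadjusted p of 0.05. Npas2, the gene with the largest change in ADX, had 4.11 and 14.6 CPM in GR KO and 25.1 and 5.75 CPM in Control and did not pass (adjusted p = 0.701). Its log2 fold change was -0.76, and 0.52 without Control replicate 1. Arrdc2 had 27.8 and 19.4 CPM in GR KO and 31.1 and 18.5 CPM in Control (log2 fold change -0.17, adjusted p = 0.93), and its direction turned without Control replicate 1 or without GR KO replicate 2. Cpm was the 1 gene higher at an unadjusted p under 0.05, with 7.93 and 6.99 CPM in GR KO and 3.85 and 2.73 CPM in Control (adjusted p = 0.333).

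**Figure D4:**
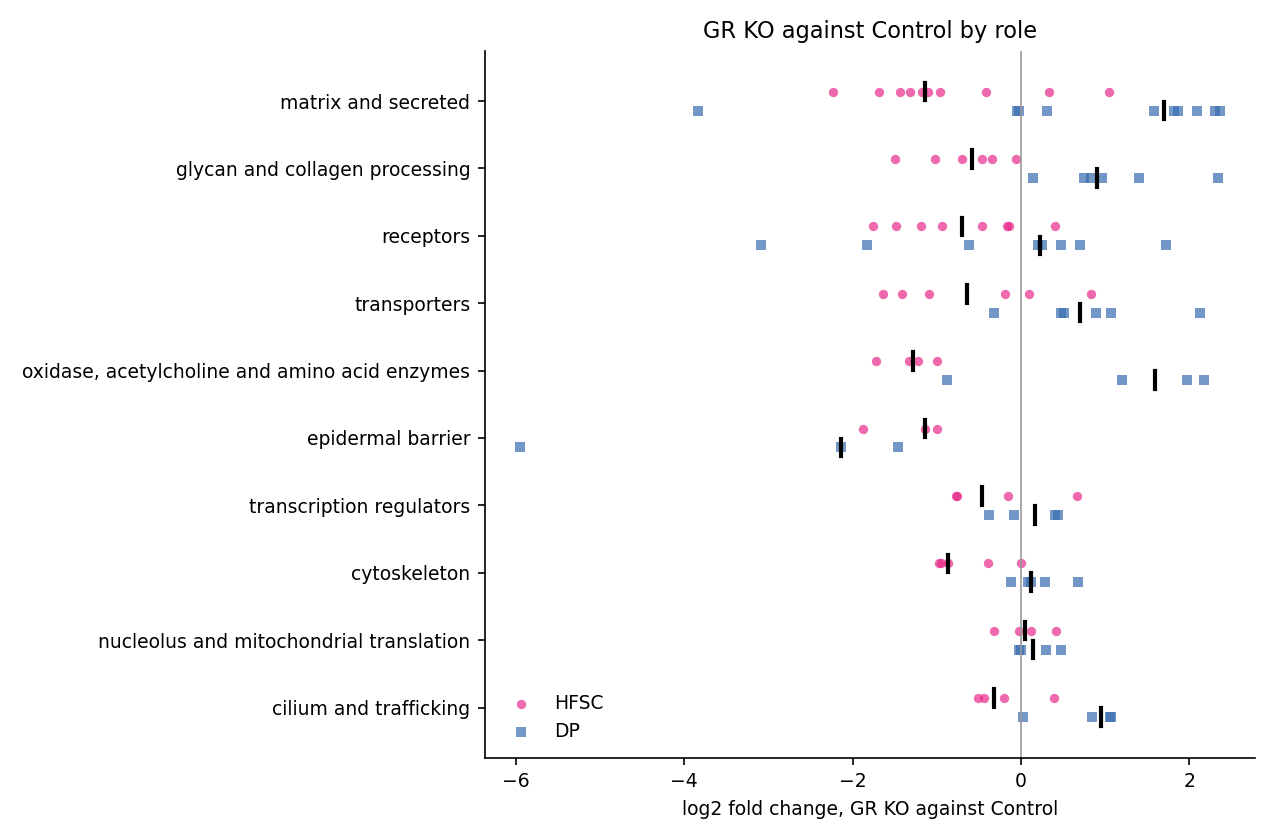
Each symbol is the log2 fold change of 1 gene in GR KO against Control, circles in HFSC and squares in DP, for the 54 genes placed in a role group, and the black bars are group medians. The matrix and secreted genes have medians of -1.14 in HFSC and 1.70 in DP, and the epidermal barrier genes -1.14 and -2.13.

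Other lists were measured in the same HFSC libraries, where 0.315% of all genes were called lower and 0.67% higher. All 20 G2 and M phase genes had higher values in GR KO, with a median log2 fold change of 2.90, and 11 of them rose at an edgeR adjusted p under 0.05; their sum was 1248 and 2606 CPM in GR KO and 339.7 and 148 CPM in Control. Of the bulge list, 18 of 26 had lower values, 0 were called in either direction, and the median was -0.24. The bulge sum was 30248 and 44019.9 CPM in GR KO and 56156 and 57766 CPM in Control, and Krt15 had 15777 and 21277 CPM in GR KO and 32017 and 32941 CPM in Control, without overlap in either. Cd34 itself, set aside by name, had 833 and 676 CPM in GR KO and 1961 and 1949.6 CPM in Control (log2 fold change -1.49, edgeR adjusted p = 0.0384). The glucocorticoid-induced list had 19 of 29 genes lower with 1 called lower and 0 higher, and a median of -0.28. Of the fibroblast list, 12 of 13 genes tested had lower values with 1 called, and the sums were 872 and 1060.0 CPM in GR KO and 1639 and 2033 CPM in Control, with Pdgfra at 0.58 and 1.14 CPM in GR KO and 2.81 and 0.788 CPM in Control. Of 21 immediate early and heat shock genes, 20 had lower values, 2 were called lower and 1 higher. The part of these lists in the differences of the 96 genes was not tested. Genes picked by the mirrored rule, higher in ADX and lower again with corticosterone, numbered 214. Of them, 43 (20.1%, where 0.67% of all genes were) were called higher and 0 lower (0.315%) in GR KO HFSC. In composition, transcripts of the 96 genes had a median GC content of 53.8% and a median length of 3662 bases, against 48.3% and 1999 bases for the mirrored set and 49.8% and 3216.5 bases for all genes tested. With an offset for GC content and length, added after the data were seen, 14 of the 96 were called lower, where 0.689% of all genes were, and their median was -0.72, next to -0.20 for all genes.

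**Figure D5:**
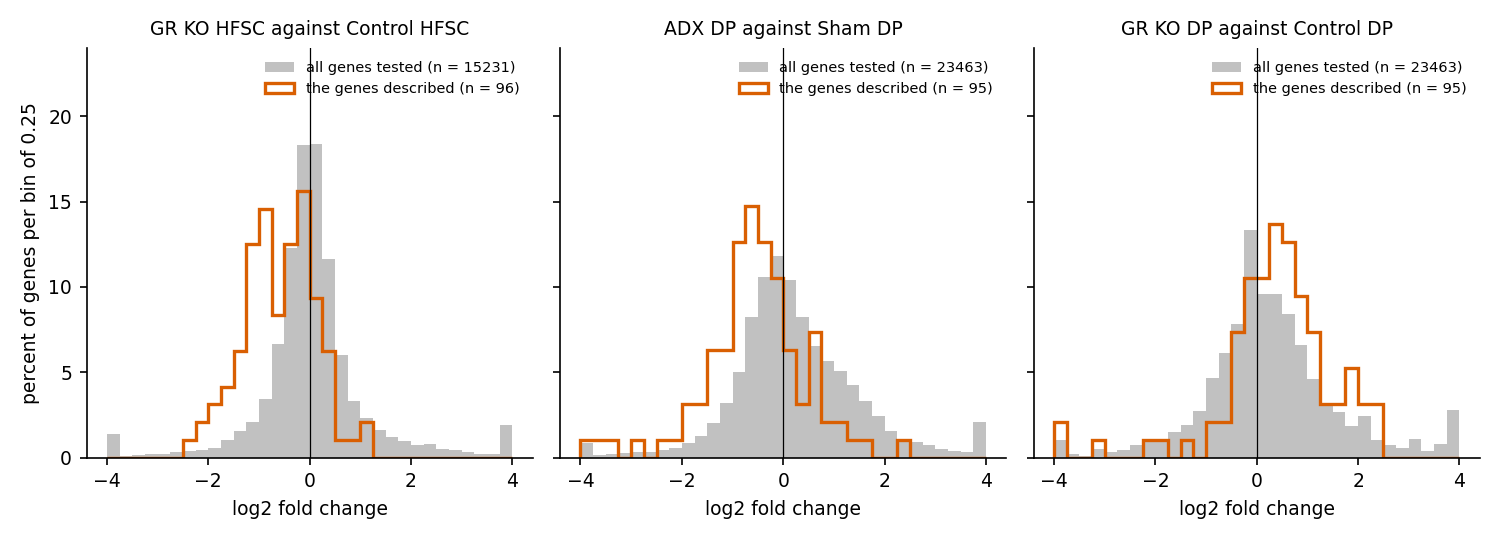
Percent of genes in bins of 0.25 of the log2 fold change, filled for all genes tested and outlined for the 96 genes (95 in DP), with values beyond 4 in either direction placed in the outermost bins. The outline has its median at -0.51 in GR KO HFSC, -0.53 in ADX DP and 0.48 in GR KO DP.

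In DP, adrenalectomy was measured on another cell population, and the rule did not use it. Of the 96 genes, 95 passed the filter on low counts, and Pdzrn4 did not. None of the 95 was called in ADX against Sham DP in either direction by edgeR, where 0.00426% of all 23463 genes were called lower and 0.0128% higher, so that hardly any gene passed. At an unadjusted p under 0.05, 19 were lower, where 7.49% of all genes were, and 1 was higher, where 4.18% were. DESeq2 called Lor and Ptpru lower, 2 of 93 members with an adjusted p, where it called 1.32% of 19955 genes lower, and it called 0 higher (0.972%). Values were lower in ADX for 72 of the 95, against 46.3% of all genes, with a median of -0.53, against 0.08. Both ADX libraries were below both Sham libraries for 35 (36.8%, where 16.6% of all genes were), and above both for 9 (9.47%, where 26.7% were). Npas2 had 3.55 and 3.85 CPM in ADX and 13.5 and 14.03 CPM in Sham DP (unadjusted p = 0.0177, edgeR quasi-likelihood fit across all genes). Nop2, needed for ribosome assembly, had 16.5 and 15.5 CPM in ADX and 38.3 and 41.3 CPM in Sham (unadjusted p = 0.00267 in that edgeR fit). Lor had 5.97 and 4.24 CPM in ADX and 26.8 and 19.3 CPM in Sham (unadjusted p = 0.00218 in that edgeR fit). None of the 3 overlapped between groups, and none passed after adjustment in that edgeR fit. Ptpru, a receptor tyrosine phosphatase, had 43.3 and 49.5 CPM in ADX and 172 and 80.5 CPM in Sham and Ngef 0.969 and 2.18 CPM in ADX and 7.26 and 13.4 CPM in Sham. The differentiated epidermis list had lower values as well, for 16 of 17 genes tested with 0 called, and summed to 977 and 464 CPM in ADX and 1979 and 7579 CPM in Sham. All 20 G2 and M phase genes had higher values in ADX DP, with 0 called, and their sums were 362 and 122 CPM in ADX and 45.2 and 82.2 CPM in Sham. Of the glucocorticoid-induced list, 26 of 30 genes had lower values, with 0 called.

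GR deletion in DP, where the recombinase acts, was the last comparison the rule did not use. Values were lower in GR KO for 27 of the 95 genes, against 43.6% of all genes, and the median log2 fold change was 0.48, against 0.17. By edgeR, 2 of the 95 fell (0.771% of all genes were called lower) and 2 rose (0.767% were called higher), each 2.11% of the 95. At an unadjusted p under 0.05, 4 were lower, where 5.57% of all genes were, and 14 were higher, where 9.67% were. DESeq2 called 4 of 90 members with an adjusted p lower (3.74% of 17482 genes) and 7 higher (4.11%). Both GR KO libraries were above both Control libraries for 41 (43.2%, where 29.3% of all genes were) and below both for 14 (14.7%, where 22% were). Lor had 0.654 and 0.287 CPM in GR KO and 41.7 and 20.2 CPM in Control (log2 fold change -5.95 ± 0.68, adjusted p = 0.0165). Ptpru had 36.7 and 20.6 CPM in GR KO and 233 and 269 CPM in Control (log2 fold change -3.09 ± 0.45, adjusted p = 0.0212). Both genes also stood lower in both ADX DP libraries than in both Sham DP libraries. Plxdc2, a plexin-domain membrane protein, had 148 and 210.2 CPM in GR KO and 64.8 and 47.6 CPM in Control (log2 fold change 1.72 ± 0.29, adjusted p = 0.0312). Spon2 had 326 and 198 CPM in GR KO and 86.8 and 61.8 CPM in Control (log2 fold change 1.87 ± 0.39, adjusted p = 0.0485). Without Control replicate 1 or without Control replicate 2, neither Plxdc2 nor Spon2 passed, Plxdc2 also did not without GR KO replicate 2 and Spon2 did not without GR KO replicate 1. Ptpru did not pass without Control replicate 2 (adjusted p = 0.0703, edgeR, the highest over the alternatives run), and Lor passed in all 4.

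Among the role groups, the 10 matrix and secreted genes had the highest median in GR KO DP, 1.70. Values were higher for 7 and lower for 3, with 4 higher and 1 lower at an unadjusted p under 0.05. Of all genes, 43.6% had lower values, and at that level 9.67% were higher and 5.57% lower. The role groups were drawn up after the members were seen. The 1 matrix and secreted gene lower at that level was Serpina12, with 0.582 and 0 CPM in GR KO and 2.94 and 5.86 CPM in Control (log2 fold change -3.84). Ltbp2 had 118 and 33.6 CPM in GR KO and 16.6 and 13.9 CPM in Control, Fmod, a collagen-binding proteoglycan, 548 and 956 CPM in GR KO and 319 and 126 CPM in Control, and Plat, tissue plasminogen activator, 279 and 83.6 CPM in GR KO and 51.3 and 36.6 CPM in Control. The GR KO libraries of each were above both Control libraries, and none passed after adjustment in edgeR. DESeq2 called each of them higher (adjusted p = 0.00095, 0.00789 and 0.00775), where it called 4.11% of 17482 genes higher. All 6 glycan and collagen genes had higher values, with a median of 0.90 and 0 called by edgeR. The fibroblast list had higher values beside them, for 12 of 15 genes with 4 called higher, and summed to 71120 and 84496 CPM in GR KO and 33013 and 23535 CPM in Control. The epidermal list summed to 978 and 79.0 CPM in GR KO and 2691 and 1216 CPM in Control beside Lor and Cdsn, with lower values for 14 of 17 genes, 2 of them called. An immune list summed to 3249 CPM in GR KO replicate 1, 55.3 CPM in GR KO replicate 2 and 517 and 279 CPM in Control, so the GR KO libraries were not alike. Of the glucocorticoid-induced list, 24 of 30 had lower values, 8 of them called, and 1 was called higher. The part of these lists was not tested. By edgeR, 0.771% of all genes were called lower and 0.767% higher.

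The difference between both DP effects, adrenalectomy and GR deletion, was tested in the same edgeR fit, a test chosen after the data were seen. Of the 95 genes, 1 was called with a lower ADX effect (0.349% of all genes were) and 0 with a higher one (0.128%). At an unadjusted p under 0.05 the ADX effect was lower for 25 of the 95, where it was for 10.6% of all genes, and higher for the other 2, where it was for 4.69%. The gene was Plxdc2, with 88.1 and 67.7 CPM in ADX and 132 and 123 CPM in Sham, and with 148 and 210.2 CPM in GR KO and 64.8 and 47.6 CPM in Control (difference of effects -2.55 ± 0.41, SE on the log2 scale, adjusted p = 0.0351). The call was lost without Sham replicate 1, Sham replicate 2, ADX replicate 2, Control replicate 1 or Control replicate 2 (adjusted p between 0.0581 and 0.213, edgeR) and with the offset for GC content and length (0.149), over alternatives that ran between 5.15e-05 and 0.213. Strain and tamoxifen differed between both experiments as well. Plxdc2 overlapped in neither comparison, being lower in ADX than in Sham and higher in GR KO than in Control. The median difference over the 95 genes was -0.84, against -0.11 over all genes.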

How the data were processed

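RNA-seq libraries, 10 of HFSC and 8 of DP, were made with SMART-Seq v4 and Nextera XT, per the labels' protocols. The HFSC files hold raw counts per gene that the authors obtained with featureCounts 1.6.1 (exons, strand ignored, mapping quality of 30 or more), per the file headers. For DP the authors deposited estimated counts per transcript. The submitters' processing notes name Salmon, STAR 2.5.3, Trim Galore 0.4.1, DESeq2 1.22.2 and mm10. DP transcripts were summed to genes through GENCODE M21 and rounded; 150 transcripts, at most 0.0752% of a library's counts, found no gene. Dates in place of 27 gene names in 2 HFSC files were restored from coordinates. The 2 cell types were counted differently and never compared for level.

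The members, role groups and gene lists were chosen with earlier results of these data known, the role groups after the members were seen. CPM values are relative to a library's total count. HFSC and DP were fitted separately, all groups together, with edgeR 4.0.16 (R 4.3.3; TMM scaling, default filter, quasi-likelihood test, Benjamini-Hochberg adjustment over all genes tested, threshold 0.05), which kept 15231 HFSC and 23463 DP genes at a biological coefficient of variation of 38.7% and 54%, on 5 and 4 residual degrees of freedom. The steps were tested on simulated counts. Genes were named by fixed rules: the 12 highest in Sham, the 12 with the largest smaller difference, members on a list, those past a threshold, and 3 on each side of the rule's threshold. Others were chosen by role after their values were seen. Exons of 19 members overlap another gene, for 5 over more than 10% of their bases, and reads there could not be told apart. Alternatives were DESeq2 1.42.0, no filter on low counts, median-of-ratios scaling, only the libraries compared, a replicate block and leaving out each library; for the rule also other scalings, pseudocounts and thresholds. Leaving out a library leaves 1 in its group, whose spread is then taken from the remaining groups. Added after the data were seen were a GC and length offset, a crossed block and the difference of the DP effects with its alternatives.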

Additional observations from a re-analysis of the deposited data

Results flagged for a closer look

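In 5 of the 96 genes, GR KO was below Control in HFSC and above it in DP, with no overlap between libraries in either and an unadjusted p under 0.05 in both edgeR fits, as did 0.895% of the 13967 genes tested in both. The difference between cell types was not tested, since their reads were counted in different ways. Ltbp2 had a log2 fold change of -1.68 ± 0.44 in HFSC and 2.36 ± 0.52 in DP (SE). Fmod had -2.23 ± 0.86 in HFSC and 1.82 ± 0.48 in DP. For Fkbp10 the values were -1.49 ± 0.26 in HFSC and 1.41 ± 0.33 in DP. Slc5a6 had -1.42 ± 0.30 in HFSC and 2.12 ± 0.62 in DP. Tmem43 had -0.58 ± 0.24 in HFSC and 1.03 ± 0.28 in DP. Fkbp10 and Slc5a6 passed the adjusted threshold in HFSC in the main edgeR fit, and none of the 5 did in DP. By DESeq2, Ltbp2, Fmod, Fkbp10 and Slc5a6 passed in DP (adjusted p = 0.00095, 0.00789, 0.0138 and 0.0193) and Tmem43 did not (0.0661). DESeq2 called 4.11% of 17482 DP genes higher. The log2 fold change of Fmod in HFSC ran between -5.32 and -1.07 with a library left out. Counted without any p, 12 of 95 genes (12.6%, where 4.01% of all genes were) lay below both Control libraries in GR KO HFSC and above both in GR KO DP, and 11 (11.6%, where 4.02% were) lay below in both cell types.

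Plxdc2 differed between the ADX effect and the GR KO effect in DP by -2.55 on the log2 scale, which was tested and passed the adjusted threshold (adjusted p = 0.0351, edgeR), but did not with any 1 of 5 of the 8 DP libraries left out.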

How the results depend on the processing

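The number of genes that met the rule was 10 with a difference of 1.5, 150 without Sham replicate 2 and 384 without ADX replicate 2, and between 89 and 384 over all libraries left out; other scalings, pseudocounts and levels kept it within 1.5 times. In GR KO HFSC, the genes called lower numbered 20 with DESeq2 (1.85% of all genes were called lower), 28 with no filter on low counts (1.64%; and 1 higher, 2.64%), 2 with only the 4 libraries compared (0.154%), 14 with the offset for GC content and length (0.689%), and 1 to 6 with a library left out, next to 0.315% as reported, so the share over all genes moved with the members; the median was -0.72 with that offset and -0.73 to -0.38 with a library left out. In ADX DP, 2 were called lower with DESeq2 (1.32% of all genes), 5 lower and 1 higher with no filter (1.23% and 0.846%) and 0 with any library left out, and the median lay between -0.65 and -0.49. In GR KO DP, 4 lower and 7 higher were called with DESeq2 (3.74% and 4.11% of all genes), 4 lower and 8 higher with no filter (1.64% and 1.74%), 1 higher with median-of-ratios scaling (0.571%), 0 higher with only the 4 libraries compared (0.407%) and with the offset (0.0639%), and 1 to 2 lower and 0 to 3 higher with a library left out, with medians between 0.18 and 0.69. The cause of these shifts was not tested. In the difference of DP effects, 10 members had a lower and 2 a higher ADX effect with no filter, 2 a lower one with a replicate block, 0 with the offset and 0 to 3 with a library left out. No gene past the threshold changed direction. Of those given without passing it, 3 did in GR KO HFSC: with a library left out, Spon2 ran between -0.22 (without GR KO replicate 2) and 1.72, Npas2 between -1.99 and 0.52 (without Control replicate 1) and Arrdc2 between -0.44 and 0.15 (without Control replicate 1; 0.04 without GR KO replicate 2). Same-numbered libraries deviated with a correlation of 0.0184 in GR KO HFSC, -0.135 in ADX DP and 0.193 in GR KO DP. With 2 libraries per group this cannot settle whether replicate numbers pair the libraries. With a replicate block, 8 members were called lower in GR KO HFSC, 6 of them among the 8, 0 in ADX DP, and 2 lower and 3 higher in GR KO DP; the medians with the block were -0.52, -0.52 and 0.48. A crossed block in ADX DP called 0. With 2 libraries per group, a missing call does not show that a gene was unchanged.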
